A study of Homo sapiens with 10 samples.

Results

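The BCL2 family decides whether the outer membrane of the mitochondrion stays closed, and 10 of its genes were followed here among the 54628 gene symbols of the deposited count table. They were taken by symbol. The 3 pro-survival members are BCL2, BCL2L1 (the gene of BCL-xL) and MCL1. The 7 pro-death members are the pore formers BAX and BAK1 and the BH3-only genes BCL2L11 (BIM), BMF, BID, BBC3 (PUMA) and PMAIP1 (NOXA). The cells were NK-92, an established human line from a natural killer cell lymphoma, kept in a medium with human serum. Polyadenylated RNA was sequenced in 5 groups of 2 libraries. The groups were cells given 500 µM deferoxamine (DFO) for 6 h or 24 h, cells given 10 µg/mL PPMX-T003 (T003) for 6 h or 24 h, and untreated cells (0 h). DFO is a small molecule that chelates iron, and T003 is an antibody against transferrin receptor 1, the receptor that brings iron into cells. No vehicle or control antibody group was analysed here, so time in culture and treatment cannot be told apart against the 0 h cells. Nothing in the labels says that the libraries of a group came from separate cultures, so p-values measure the spread between these libraries only, which may be technical.

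As background, pro-survival members bind and hold back the pore formers and the BH3-only proteins. When BH3-only proteins outnumber the free binding sites, BAX and BAK1 assemble into pores, cytochrome c leaves the mitochondrion and caspases are activated. Natural killer cells are known to depend on MCL1 and, for their resting survival, on BCL2, and cytokines such as IL-2 and IL-15 keep both supplied. Much of the family is also controlled after transcription, through protein turnover, cleavage and sequestration, which transcript counts do not show. In bulk libraries such as these, fewer cells of a kind and less RNA per cell cannot be told apart.

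The shallowest library held 107117892 estimated counts and the deepest 143575614, and every member passed the filter on low counts (20125 genes tested). StringTie computes such counts from coverage and a set read length, so these totals need not equal the number of reads. TFRC, the gene of transferrin receptor 1, stood at 834 and 833 CPM (estimated counts scaled to the library's total and by TMM) after 24 h of DFO and at 845 and 847 CPM after 24 h of T003, against 177 and 165 CPM in untreated cells. All 10 natural killer markers on a fixed list were at a mean of 1 CPM or more. Their summed level was 3660 to 3696 CPM with T003 at 24 h, 3433 to 3457 CPM with DFO at 24 h and 3268 to 3318 CPM in untreated cells, but its genes did not move as one. In edgeR 2 of the 10 were higher and 1 was lower after 24 h of DFO, beside 3.43% higher and 3.27% lower of all genes. After 24 h of T003 5 were higher and 1 was lower, beside 7.1% and 5.44% of all genes. IL2RB, a receptor chain for IL-2 and IL-15, had 1188 and 1182 CPM with DFO and 1316 and 1294 CPM with T003 at 24 h, against 1052 and 1015 CPM in untreated cells. KLRD1, a receptor chain of natural killer cells, had 39.7 and 40.3 CPM with DFO and 42.6 and 42.3 CPM with T003, against 49.9 and 49.998 CPM in untreated cells. NKG7 was also lower at 24 h with both agents in every library, without passing the test (edgeR adjusted p = 0.0586 with DFO and 0.106 with T003). The part of these markers in the results below was not tested. Lists for other cells were low but not empty. Of 6 T cell markers only TRAC was at a mean of 1 CPM or more. TRAC had 18.5 and 22.8 CPM with DFO at 24 h and 24.2 and 24.6 CPM with T003 at 24 h, against 16.2 and 16.5 CPM in untreated cells. The 4 B cell markers summed to 0.146 to 0.329 CPM over all libraries, all of it CD79A, with MS4A1 at 0. The 4 myeloid markers summed to 5.01 to 7.55 CPM, most of it ITGAM, which had 4.93 to 7.24 CPM. The 4 epithelial, fibroblast and endothelial markers summed to 1.83 to 3.29 CPM with T003 at 24 h and 1.32 to 1.65 CPM with DFO at 24 h, against 0.918 to 1.02 CPM in untreated cells, with EPCAM at 0. PECAM1 made up most of that sum, at 3.26 and 1.83 CPM with T003, against 0.918 and 0.890 CPM in untreated cells (log2 1.49, edgeR adjusted p = 0.00871). The part of these lists in the results was not tested either.

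BCL2 and BMF were the members whose levels moved most clearly, in opposite directions, and BCL2L11 is set beside them as the BH3-only gene with the highest fitted change after DFO. The bases around their start sites are shown for that reason, as RefSeq gives them for GRCh38.p14, from 250 bases before to 50 bases after the start site and read along the gene's strand. Capitals mark matches on either strand to GTAAACA (a forkhead-type motif) or GGGCGG (a GC box).
BCL2 (chr18:63319720-63320019, minus strand): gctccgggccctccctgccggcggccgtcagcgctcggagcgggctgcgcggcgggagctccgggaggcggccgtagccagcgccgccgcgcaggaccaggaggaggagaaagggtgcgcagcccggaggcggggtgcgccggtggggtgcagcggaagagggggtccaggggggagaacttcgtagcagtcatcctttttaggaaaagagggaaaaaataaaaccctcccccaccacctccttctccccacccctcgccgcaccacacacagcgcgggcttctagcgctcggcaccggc
BMF (chr15:40108830-40109129, minus strand): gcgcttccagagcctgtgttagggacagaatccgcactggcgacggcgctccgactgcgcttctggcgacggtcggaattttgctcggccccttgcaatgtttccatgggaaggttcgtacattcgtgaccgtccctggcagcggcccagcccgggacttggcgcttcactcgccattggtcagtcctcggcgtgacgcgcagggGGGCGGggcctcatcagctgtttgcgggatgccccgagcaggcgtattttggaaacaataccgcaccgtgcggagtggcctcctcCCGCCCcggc
BCL2L11 (chr2:111120664-111120963, plus strand): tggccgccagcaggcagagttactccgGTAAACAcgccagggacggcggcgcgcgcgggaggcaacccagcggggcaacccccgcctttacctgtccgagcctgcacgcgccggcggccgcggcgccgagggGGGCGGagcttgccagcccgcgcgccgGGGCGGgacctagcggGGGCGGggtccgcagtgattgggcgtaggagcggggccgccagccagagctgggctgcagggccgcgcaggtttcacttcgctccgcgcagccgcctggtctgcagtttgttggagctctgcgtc
The BMF window holds 2 GC boxes and the BCL2L11 window holds 3, and 45.0% of 35116 promoters hold at least 1. GTAAACA occurs once in the BCL2L11 window, at 223 bases before the start site, and in 3.42% of all promoters. The BCL2 window holds neither, but it lies wholly inside the gene's RefSeq span (63123346 to 63320090). The start sites used for BCL2, BID and BBC3 lie inside their genes' spans, and other start sites were not searched. TTCNNNGAA, a STAT-type motif found in 7.66% of all promoters, was in none of the 9 member promoters in the table, and CACGTG, an E-box found in 7.26%, was in those of BAX (4 matches) and BBC3 (1 match). No match overlapped a match to another motif among the members printed.

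Per kilobase of canonical transcript, BAX and MCL1 had the highest levels of the 10 genes. In untreated cells BAX had 77.6 and 76.8 CPM per kb, MCL1 56.5 and 55.6, and BCL2L1 49.96 and 49.4. BAK1 followed with 38.2 and 40.5 CPM per kb and BID lay just below with 37.8 and 37.4. BMF had 26.7 and 29.3 CPM per kb and PMAIP1 lay just below with 24.8 and 26.4. In both pairs the gap between the nearest values was smaller than the spread of the higher gene. BCL2 stood lower, at 17.1 and 17.3 CPM per kb. The BH3-only genes BCL2L11, at 3.70 and 3.29 CPM per kb, and BBC3, at 0.746 and 1.117, were the lowest. These levels depend on the transcript taken as a gene's length, and the first place of BAX rests on that choice. The canonical transcript of BAX has 795 bases and the union of its exons 2587, against 2170 and 2212 for BAK1. Gene counts do not separate the splice forms of BCL2L1, MCL1 or BCL2L11.

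**Figure D1:**
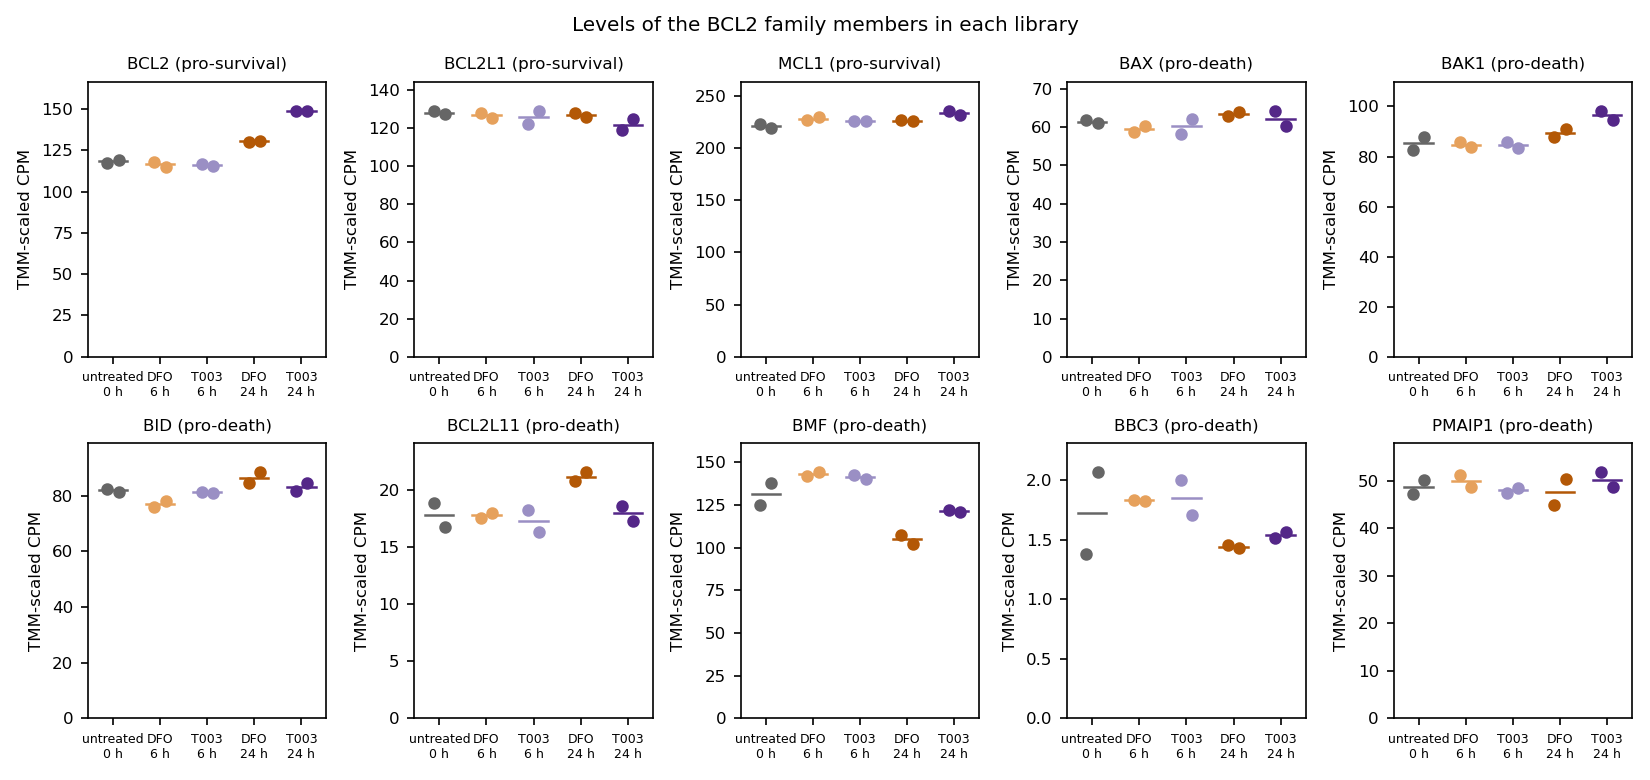
Level of each member (y axis, TMM-scaled CPM, from 0) in each library (points, with the group mean as a line) by group and time (x axis). BCL2 is highest in the libraries of T003 at 24 h, at 149 CPM in both, and BMF is lowest in those of DFO at 24 h, at 107 and 102 CPM.

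At 6 h no member passed the test with either agent. The edgeR quasi-likelihood test called 0 of 10 members with DFO, against 0.0248% of all genes, and 0 of 10 with T003, against 0.0298%. DESeq2 and limma-voom also called 0 in both. At an unadjusted p under 0.05 in edgeR there were 2 members with DFO, BMF and BID, beside 2494 of 20125 genes. With T003 there was 1, BMF, beside 1516 of 20125 genes. BMF had 142 and 144 CPM after 6 h of DFO and 143 and 140.0 CPM after 6 h of T003, against 125 and 138 CPM in untreated cells (log2 0.12 and 0.11, adjusted p = 0.259 and 0.621). Both treated pairs lay above both untreated libraries, but the size rests on the untreated pair. Without untreated replicate 1 the log2 changes of BMF were 0.058 with DFO and 0.043 with T003, and without untreated replicate 2 they were 0.19 and 0.18. BID had 76.0 and 78.2 CPM after 6 h of DFO, against 82.3 and 81.4 CPM in untreated cells (log2 -0.09, adjusted p = 0.297). Fitted log2 changes of the 10 genes spanned -0.09 to 0.12 with DFO and -0.04 to 0.11 with T003.

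Among the pro-survival genes at 24 h, BCL2 rose with both agents. BCL2 (chromosome 18, 63123346 to 63320090, minus strand, hg38) had 130.0 and 131 CPM after 24 h of DFO and 149 and 149 CPM after 24 h of T003, against 118 and 119 CPM in untreated cells. The 3 groups did not overlap, with T003 highest and untreated cells lowest. The rise was 1.10-fold with DFO (95% interval 1.06 to 1.14; log2 0.14, SE 0.024, edgeR adjusted p = 0.0059) and 1.26-fold with T003 (1.21 to 1.303; log2 0.33, SE 0.024, adjusted p = 1.91e-05). Both calls held without each library in turn and in every alternative tried, with an adjusted p of at most 0.0445 for DFO and 0.000531 for T003.

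MCL1, the short-lived guard that also binds BIM and NOXA, had the highest level of the 3 per transcript and changed little. It had 227 and 226 CPM after 24 h of DFO and 236 and 232 CPM after 24 h of T003, against 223 and 219.7 CPM in untreated cells. With T003 the change was 1.06-fold (log2 0.08, SE 0.021, adjusted p = 0.0373), and with DFO log2 0.03 (SE 0.021, adjusted p = 0.488). The T003 call ended without any library of the untreated, T003 6 h, DFO 24 h or T003 24 h groups (adjusted p = 0.0583 to 0.271), and held only without a DFO 6 h library. It also ended with no filter (0.125), in the fit with a replicate block (0.0544) and when fitted to the compared groups alone (0.0821).

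BCL2L1 did not pass the test. It had 128 and 125 CPM after 24 h of DFO and 119 and 124 CPM after 24 h of T003, against 129 and 127 CPM in untreated cells (log2 -0.01 and -0.07, SE 0.032 each, adjusted p = 0.886 and 0.199). ABALON, an antisense noncoding gene that overlaps exons of BCL2L1, had 18.4 CPM in replicate 1 of T003 at 24 h, the lowest library for BCL2L1, and 5.95 to 8.38 CPM in all other libraries. BCL2L1 and ABALON together had 137 and 131 CPM with T003 at 24 h, against 135 and 134 CPM in untreated cells. How reads were assigned between the overlapping genes was not tested.

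Of the BH3-only genes, BMF fell with DFO at 24 h. BMF (chromosome 15, 40087890 to 40108879, minus strand, hg38), whose protein is known to be held at the actin cytoskeleton until released, had 107 and 102 CPM after 24 h of DFO and 122 and 121 CPM after 24 h of T003, against 125 and 138 CPM in untreated cells. Both treated groups lay below both untreated libraries, DFO lowest. The level fell to 0.798-fold with DFO (95% interval 0.751 to 0.849; log2 -0.33, SE 0.040, adjusted p = 0.000783), a call that held in every alternative tried. With T003 it was 0.923-fold (0.868 to 0.982; log2 -0.11, SE 0.040, adjusted p = 0.0942), with adjusted p = 0.00997 without untreated replicate 1, 0.593 without untreated replicate 2 and 0.0416 in DESeq2.

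BCL2L11 (chromosome 2, 111120914 to 111168445, plus strand, hg38), whose protein BIM binds every pro-survival member, had 20.8 and 21.5 CPM after 24 h of DFO and 18.6 and 17.3 CPM after 24 h of T003, against 18.8 and 16.8 CPM in untreated cells. The DFO libraries were the 2 highest of the 10, while T003 overlapped untreated cells. Its fitted change with DFO was 1.19-fold (1.06 to 1.33; log2 0.25, SE 0.076) and missed the threshold in edgeR (adjusted p = 0.0817), whereas DESeq2 (0.0316) and limma-voom (0.0476) called it. MIR4435-2HG, a noncoding gene on the other strand that overlaps BCL2L11 exons and whose CPM is on average 339% of that of BCL2L11, had log2 changes of -0.0023 with DFO and 0.06 with T003 (adjusted p = 0.989 and 0.375). The overlap touches 2 annotated exons of BCL2L11. Without a stated strand setting, reads that fall where the exons of the pair overlap cannot be told apart.

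BID, which caspase 8 and granzyme B cut into its active form, had 84.7 and 88.3 CPM after 24 h of DFO and 81.6 and 84.6 CPM after 24 h of T003, against 82.3 and 81.4 CPM in untreated cells (log2 0.08 and 0.02, adjusted p = 0.177 and 0.760). PMAIP1, whose product NOXA binds MCL1, had 44.9 and 50.3 CPM with DFO and 51.7 and 48.6 CPM with T003, against 47.2 and 50.05 CPM in untreated cells. On the log2 scale its 95% intervals at 24 h were -0.15 to 0.09 with DFO and -0.08 to 0.17 with T003. BBC3, a p53 target gene, was the scarcest member with 179 to 264 estimated counts a library. It had 1.45 and 1.43 CPM with DFO and 1.52 and 1.56 CPM with T003, between the 1.38 and 2.06 CPM of the untreated libraries. The interval for BBC3 with DFO was wide (log2 -0.66 to 0.15). Its value, -0.25, was -0.52 without untreated replicate 1 and 0.07 without untreated replicate 2, so no direction can be given.

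The pore formers were measured with narrow intervals. BAK1 (chromosome 6, 33572552 to 33580276, minus strand, hg38) rose with T003, with 98.2 and 94.8 CPM after 24 h of T003 and 87.8 and 91.1 CPM after 24 h of DFO, against 82.8 and 87.8 CPM in untreated cells. Only T003 stood apart from untreated cells, at 1.13-fold (1.07 to 1.19; log2 0.18, SE 0.035, adjusted p = 0.0072), and DFO was at log2 0.07 (SE 0.035, adjusted p = 0.335). The T003 call ended without replicate 1 of T003 at 24 h (adjusted p = 0.0739) and without untreated replicate 1 (0.0712). BAX had 62.9 and 63.9 CPM after 24 h of DFO and 64.2 and 60.2 CPM after 24 h of T003, against 61.7 and 61.1 CPM in untreated cells (log2 0.05 and 0.02, adjusted p = 0.627 and 0.858). On the log2 scale the intervals for BAX were -0.04 to 0.14 with DFO and -0.07 to 0.11 with T003.

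**Figure D2:**
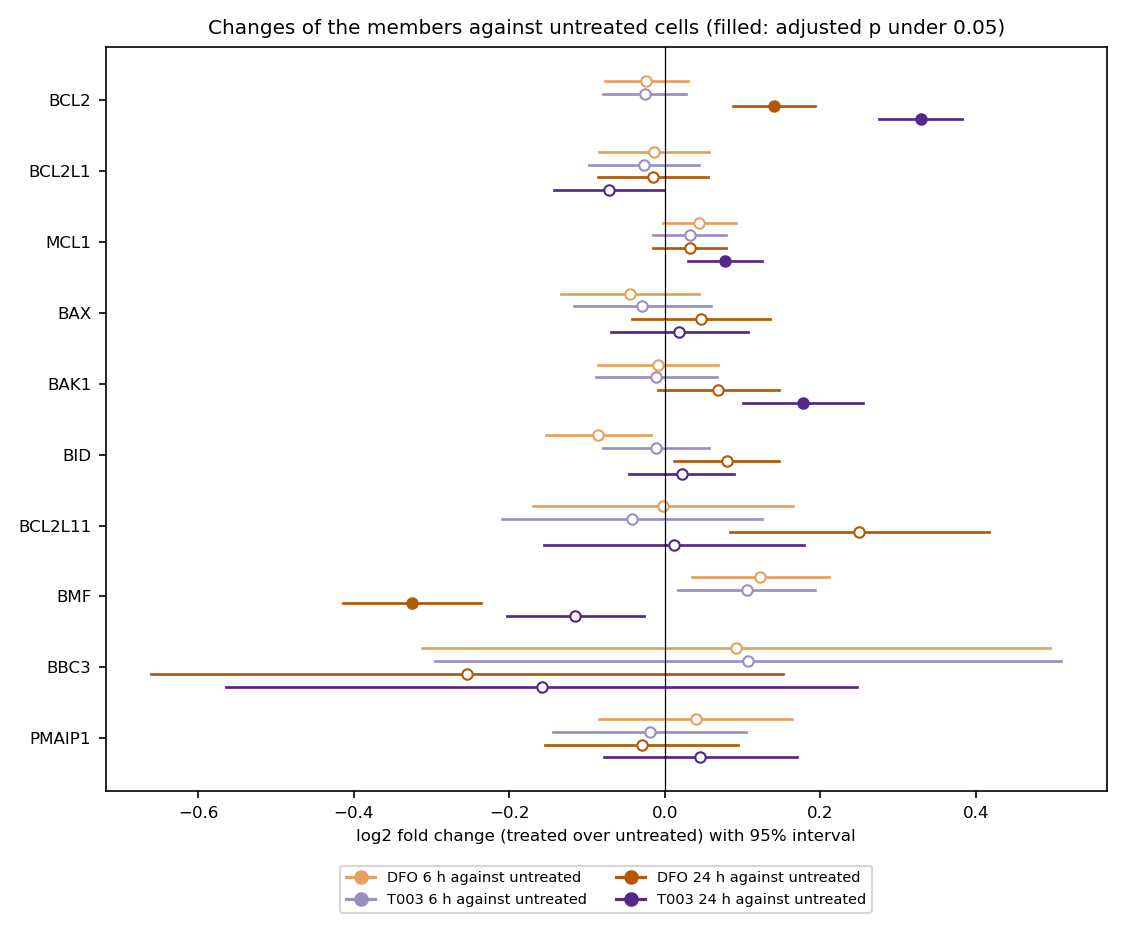
Fitted log2 fold change of each member over untreated cells (x axis) with its 95% interval (line) for the 4 treated groups, members down the page. Filled points passed an adjusted p of 0.05 in edgeR. These are BCL2 and BMF for DFO at 24 h (log2 0.14 and -0.33) and BCL2, MCL1 and BAK1 for T003 at 24 h (0.33, 0.08 and 0.18).

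Counted over the family at 24 h, DFO raised 1 of 10 members and lowered 1, beside 6.7% of all genes called (3.43% higher and 3.27% lower). T003 raised 3 of 10 and lowered 0, beside 12.5% of all genes (7.1% higher and 5.44% lower). Median log2 changes of the members were 0.04 with DFO and 0.02 with T003, against -0.00229 and -0.00688 over all genes tested. Both comparisons share the untreated libraries.

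The agents differed at 24 h in BCL2 and BMF. DFO against T003 called 2 of 10 members, both lower with DFO, beside 1.34% of all genes (0.457% higher and 0.884% lower). BCL2 was at log2 -0.19 (SE 0.024, adjusted p = 0.00768) and BMF at -0.21 (SE 0.040, adjusted p = 0.0366). Each of the 4 compared libraries was needed, since without any of them BCL2 had adjusted p = 0.0603 to 0.0839 and BMF 0.0884 to 0.220. BMF also lost its call without either T003 6 h library (0.0739 and 0.0721), with the replicate block (0.0583), with the compared groups alone (0.0524) and once GC content and length trends were removed (0.0619). BCL2L11 and BAK1 had differences of log2 0.24 and -0.11 (adjusted p = 0.170 and 0.175). At 6 h, 0 of 10 members differed between the agents in edgeR, DESeq2 or limma-voom, beside 0, 6 and 1 of 20125 genes. BID was the 1 member at an unadjusted p under 0.05 in edgeR, beside 1334 of 20125 genes.

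Between 6 h and 24 h of DFO, 3 of 10 members changed, beside 9.89% of all genes (5.29% higher and 4.6% lower). BCL2 rose by 0.16 (log2, SE 0.024, adjusted p = 0.00167), BID rose by 0.17 (SE 0.031, adjusted p = 0.0065) and BMF fell by 0.45 (SE 0.040, adjusted p = 5.82e-05). The BID call ended without replicate 1 of DFO at 6 h (0.0566) or replicate 2 of DFO at 24 h (0.0622). BCL2L11 was at 0.25 (SE 0.076, adjusted p = 0.0625), and 5 alternatives called it, namely without untreated replicate 2 (0.0493), the 1 CPM filter (0.0466), removal of GC content and length trends (0.0440), DESeq2 (0.0241) and limma-voom (0.0410). Between 6 h and 24 h of T003, 3 of 10 changed, beside 13.5% of all genes (7.55% higher and 5.93% lower). BCL2 rose by 0.35 (SE 0.024, adjusted p = 8.04e-06), BAK1 rose by 0.19 (SE 0.035, adjusted p = 0.00478) and BMF fell by 0.22 (SE 0.040, adjusted p = 0.00409). The BAK1 call ended without replicate 1 of T003 at 24 h (0.0569). The 6 h and 24 h values of BMF against untreated cells lay on opposite sides of 0 with both agents, of which only DFO at 24 h passed the test. The interaction of agent and time called 0 of 10 members in edgeR, beside 0.0199% of all genes, and 0 in limma-voom, beside 19 of 20125 genes. DESeq2 called 2, BCL2 and BMF, beside 116 of 20125 genes. In edgeR 4 members had an unadjusted p under 0.05, beside 1851 of 20125 genes.

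Summed per transcript length, pro-survival and pro-death levels moved little against each other. The pro-survival sum was 126 and 125 CPM per kb with DFO at 24 h and 127 and 129 CPM per kb with T003 at 24 h, against 124 and 122 CPM per kb in untreated cells. The pro-death sum was 209.9 and 216 with DFO and 221 and 214 with T003, against 209.5 and 215 in untreated cells. Their log2 ratio was -0.74 and -0.79 with DFO and -0.80 and -0.73 with T003, against -0.76 and -0.81 in untreated cells, so the groups overlapped. At 6 h it was -0.76 and -0.77 with DFO and -0.79 and -0.78 with T003. Without division by length, both 24 h groups lay above untreated cells. The log2 ratio of the CPM sums was then 0.241 and 0.202 with DFO and 0.200 and 0.239 with T003 at 24 h. It was 0.162 and 0.093 in untreated cells, and at 6 h 0.126 and 0.111 with DFO and 0.095 and 0.119 with T003. Whether the groups overlap thus depends on the division by length. No test was made on these sums.

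Within the sums, the makeup shifted. BCL2 made up 15.005% to 15.2% of the pro-survival sum with DFO at 24 h and 16.8% to 16.9% with T003 at 24 h, against 13.8% to 14.2% in untreated cells. BMF made up 10.1% to 10.9% of the pro-death sum with DFO at 24 h and 11.8% to 12.03% with T003 at 24 h, against 12.7% to 13.7% in untreated cells. The log2 ratio of BCL2 to BMF per kilobase, a pair chosen after its values were seen, was -0.28 and -0.20 with DFO at 24 h and -0.27 and -0.25 with T003 at 24 h, against -0.64 and -0.76 in untreated cells. At 6 h it was -0.82 and -0.88 with DFO and -0.84 and -0.83 with T003. BCL2 to BCL2L11 was 2.21 and 2.17 with DFO at 24 h and 2.56 and 2.67 with T003 at 24 h, against 2.21 and 2.40 in untreated cells. By this ratio DFO lay at the low edge of untreated cells and T003 above them.

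**Figure D3:**
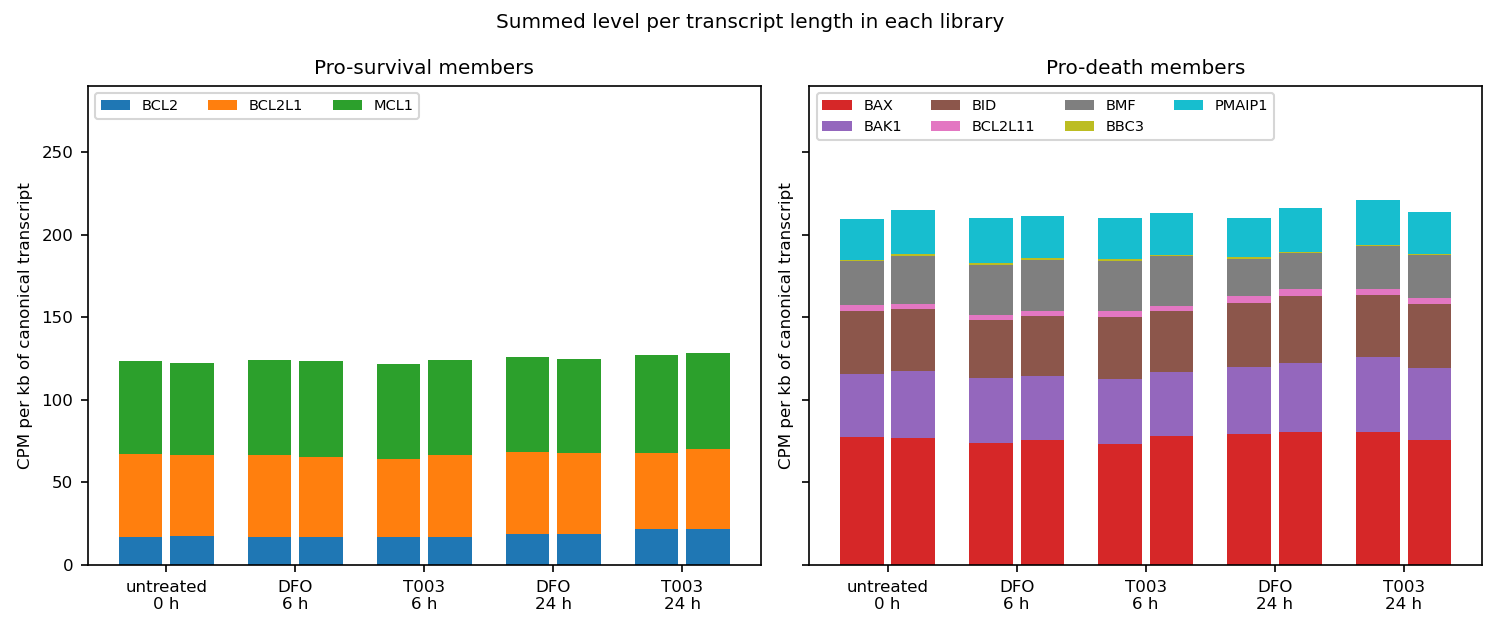
Stacked level of the pro-survival (left) and pro-death (right) members in each library (y axis, CPM per kb of canonical transcript), with the 2 libraries of a group side by side. The pro-survival bars reach 122 to 129 and the pro-death bars 209.5 to 221, with BAX and MCL1 the largest pieces.

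Genes with the pattern most like a called member were taken from all tested genes at a mean log2 CPM of at least 2, by the root mean square difference of the 4 log2 changes against untreated cells. For BCL2 these were SLAMF7, a receptor of natural killer cells (0.0085), PPARGC1B (0.022) and ACP6 (0.022). SLAMF7 had log2 changes of 0.14 with DFO and 0.31 with T003 at 24 h. For BMF they were ANXA2R (0.032), IQCE (0.036) and CD44 (0.042), the last an adhesion receptor, with -0.25 with DFO and -0.09 with T003 at 24 h. For BAK1 they were ZDHHC18 (0.0094), PMPCA (0.011) and UVRAG (0.013), and for MCL1 DCAF16 (0.0051), TACC1 (0.0075) and KPNA6 (0.0078). The 4 changes share the untreated libraries.

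Other BCL2 family genes changed little. Of 13 listed, BCL2L10, BIK and HRK were too low to be tested. With DFO at 24 h 0 of 10 tested passed in edgeR, DESeq2 or limma-voom, beside 6.7% of all genes in edgeR. None had an unadjusted p under 0.05 in edgeR, beside 3822 of 20125 genes, and the median log2 change was -0.04. With T003 at 24 h BCL2L12 alone rose (log2 0.20, SE 0.049, adjusted p = 0.0201), with 39.7 and 37.1 CPM against 32.9 and 33.8 CPM in untreated cells, and the median was -0.09. That is 1 of 10, beside 12.5% of all genes. That call ended without replicate 1 of T003 at 24 h or either untreated library (adjusted p = 0.0837 to 0.191). BCL2A1, a pro-survival relative known from activated lymphocytes, stayed at 0.053 to 0.207 CPM in all 10 libraries.

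Genes of the list on release and caspases moved both ways. Of 18 genes of cytochrome c release, the apoptosome and caspases, 1 was higher and 2 were lower after 24 h of DFO, and 5 were higher and 1 was lower after 24 h of T003, with median log2 changes of 0.01 for both. Over all genes 3.43% were higher and 3.27% lower with DFO, and 7.1% higher and 5.44% lower with T003. CASP8, which starts the death receptor branch and cuts BID, had 68.9 and 67.6 CPM with DFO and 67.5 and 70.3 CPM with T003, against 78.1 and 77.7 CPM in untreated cells. It fell with both (log2 -0.19 and -0.18, SE 0.041 each, adjusted p = 0.0185 and 0.0166). CASP2 fell with DFO (-0.11, SE 0.025, adjusted p = 0.0269). DFFA, the inhibitor of the caspase-activated DNase, rose with both (0.16 and 0.15, SE 0.028 each, adjusted p = 0.00615 and 0.00495). CYCS, the gene of cytochrome c, rose with T003 (0.13, SE 0.023, adjusted p = 0.00458). With DFO it was at 0.08, which edgeR did not call, whereas DESeq2 (adjusted p = 0.0194) and limma-voom (0.0392) called it. APAF1, the scaffold of the apoptosome, also rose with T003 and was named after its value was seen (0.32, SE 0.088, adjusted p = 0.0399). Single libraries of the compared groups decided most of these calls. CASP8 had adjusted p = 0.0645 to 0.125 without any DFO 24 h or untreated library in the DFO comparison, and 0.0737 to 0.113 without replicate 1 of T003 at 24 h or either untreated library in that of T003. CASP2 had up to 0.219, and CYCS 0.0644 without replicate 1 of T003 at 24 h. DFFA had 0.0692 without untreated replicate 2 with DFO, and 0.0524 and 0.0581 without replicate 2 of T003 at 24 h or untreated replicate 2 with T003. The APAF1 call ended without either library of T003 at 24 h (log2 0.32 and 0.31) and without untreated replicate 1 (0.22). It also ended without either T003 6 h library, without replicate 1 of DFO at 24 h and with the replicate block (adjusted p = 0.0537).

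In the list of IAP and death receptor genes, 0 of 14 were higher and 3 were lower after 24 h of DFO, and 0 were higher and 5 lower after 24 h of T003, with medians of -0.05 and -0.03. The share of all genes called lower was 3.27% with DFO and 5.44% with T003. CFLAR, whose product FLIP blocks caspase 8 at death receptors, had 133 and 127 CPM with DFO and 126 and 128 CPM with T003, against 155 and 160.1 CPM in untreated cells. It fell with DFO (log2 -0.28, SE 0.027, adjusted p = 0.000162) and T003 (-0.31, SE 0.027, adjusted p = 5.53e-05), and both calls held in every alternative tried. BIRC2, a ubiquitin ligase that restrains RIPK1, fell by 0.17 with DFO (SE 0.032, adjusted p = 0.0102) and 0.24 with T003 (SE 0.032, adjusted p = 0.000805). RIPK1, the kinase of TNF receptor signalling, fell by 0.23 and 0.22 (SE 0.050 each, adjusted p = 0.0194 and 0.0171). With T003 FASLG, the ligand natural killer cells use to trigger FAS, fell by 0.18 (SE 0.037, adjusted p = 0.00955). TNFRSF10A, a TRAIL receptor at 1.11 and 0.945 CPM with T003 against 1.54 and 1.63 CPM in untreated cells, was at -0.62 (SE 0.155, adjusted p = 0.0231) and was named after its value was seen. DESeq2 (adjusted p = 0.0699) and the edgeR fit to the compared groups alone (0.0543) did not call TNFRSF10A. BIRC2 lost its DFO call without any DFO 24 h or untreated library (0.0545 to 0.0883). RIPK1 lost it without either DFO 24 h library or untreated replicate 2 (0.0823 to 0.197), and its T003 call without replicate 1 of T003 at 24 h or untreated replicate 2 (0.128 and 0.156). FASLG had 0.0684 and 0.0751 without those same libraries. TNFRSF10A had 0.0684 to 0.161 without replicate 2 of T003 at 24 h or either untreated library.

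Among 22 tested regulators of the members, 1 was higher and 5 were lower after 24 h of DFO, and 3 were higher and 4 lower after 24 h of T003, with medians of -0.05 and 0.03. These calls stand beside 6.7% of all genes with DFO and 12.5% with T003. At 6 h 1 of the 22 was lower with each agent, beside 0.0248% of all genes called with DFO and 0.0298% with T003. PIM1 and PIM2, kinases induced by IL-2 and STAT5 that phosphorylate BAD, both fell. PIM2 was lower at 6 h too, at a mean of 118 CPM with DFO and 121 CPM with T003, against 141 CPM in untreated cells. Its means at 24 h were 120 CPM with DFO and 130 CPM with T003. PIM1 had 229 and 229 CPM with DFO and 230.4 and 222 CPM with T003, against 277 and 290 CPM in untreated cells (log2 -0.31 and -0.33, SE 0.034 each, adjusted p = 0.000331 and 0.000151). PIM2 was at -0.24 and -0.12 (SE 0.028 each, adjusted p = 0.000532 and 0.0141), the T003 call ending without replicate 2 of T003 at 24 h or untreated replicate 2 (0.107 and 0.146). DDIT3, the stress factor CHOP, which can induce BCL2L11 and BBC3, fell by 0.55 and 0.64 (SE 0.086 each, adjusted p = 0.00344 and 0.000815). MYC, a transcription factor of cell growth, rose by 0.24 and 0.38 (SE 0.042 each, adjusted p = 0.00639 and 0.000251), its DFO call ending without replicate 2 of DFO at 24 h or untreated replicate 2 (0.0653 and 0.0799). Calls outside the naming rule, given because the counts are small, were ATF4 (-0.18) and TRIB3 (-0.23) lower with DFO, and FBXW7 (0.22) and FOXO3 (0.11) higher and TRIB3 (-0.19) lower with T003, at adjusted p = 0.0131 to 0.0497. Each of those calls ended without at least 1 library of its own comparison, with adjusted p of up to 0.171 for ATF4, 0.118 for TRIB3, 0.234 for FBXW7 and 0.248 for FOXO3. FOXO3 kept its T003 call in only 6 of 18 alternatives, and DESeq2 (adjusted p = 0.0575) and edgeR with no filter (0.1015) did not call it. PIM1 and DDIT3 kept their calls in every alternative tried.

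**Figure D4:**
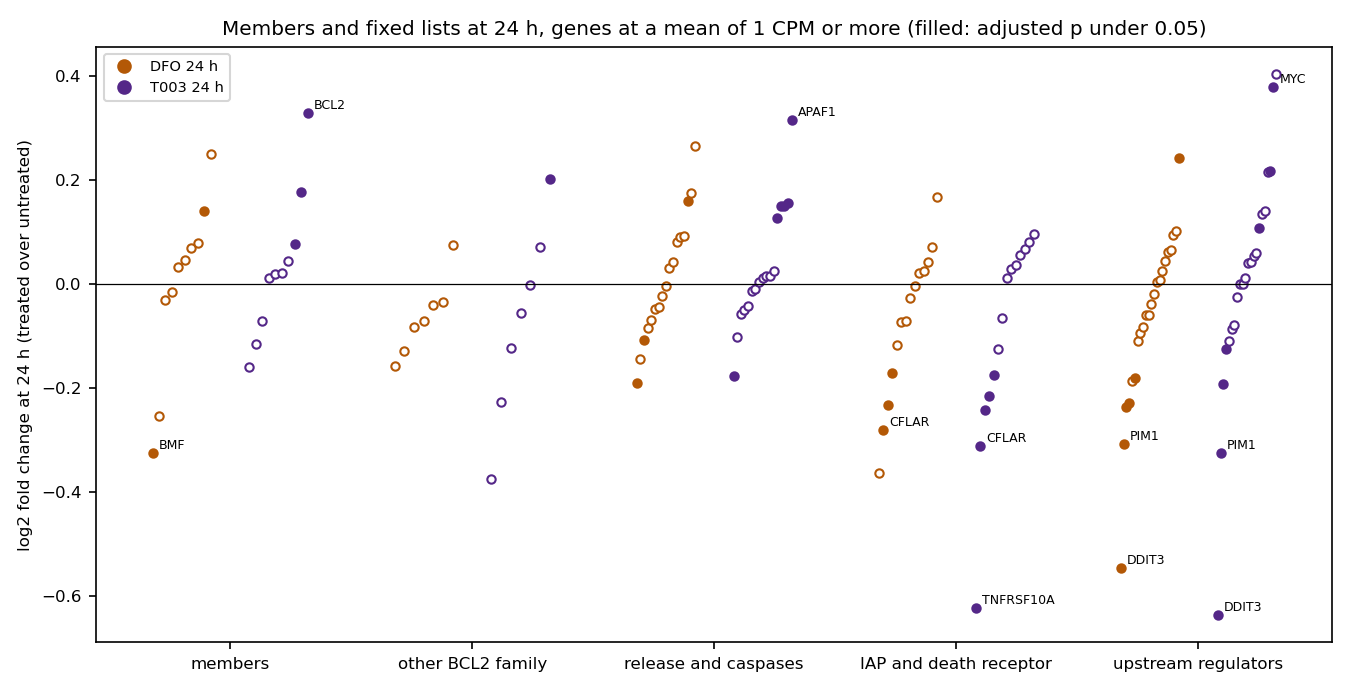
Log2 fold change over untreated cells at 24 h (y axis) of the members and the fixed lists (x axis), for genes at a mean of 1 CPM or more, with DFO and T003 side by side and filled points for an adjusted p under 0.05. CFLAR, PIM1 and DDIT3 lie below 0 with both agents, and BCL2 and MYC are among the highest called genes with T003 (0.33 and 0.38).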

How the data were processed

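The deposited table holds estimated counts per gene symbol, which the authors left unscaled, with 1 column a library and none unmapped. The processing notes of the submitters name fastp 0.21.0, HISAT2 2.2.1 and StringTie 2.1.6 with hg38, and the design text adds RefSeq genes and paired reads of 101 bp. StringTie derives counts from coverage. Strand handling in the counting was not given in the sources used here. All values were whole and needed no rounding.

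The edgeR 4.0.16 quasi-likelihood F-test (R 4.3.3) was fitted to all 10 libraries with group as its only term, TMM scaling (factors 0.991 to 1.01) and filterByExpr (minimum count 10), which left 20125 genes. P-values were adjusted by Benjamini-Hochberg across the 20125 genes of each comparison, and an adjusted p under 0.05 is called a change. SE was taken as the size of the log2 change over the root of its F statistic, and 95% intervals use 5 residual plus the prior degrees of freedom. Levels are TMM-scaled CPM. Lengths are those of GENCODE canonical transcripts, coordinates those of RefSeq for GRCh38.p14, the same assembly as hg38. The 9 comparisons, the lists and the naming rule (all members, the 4 genes of each list with the smallest p in each 24 h comparison, and the 3 nearest patterns) were chosen with earlier results of these data known. The fit was tested on simulated data with known changes. Replicate libraries differed by an SD of 0.152 to 0.222 (log2, over genes), and no pair was identical. Alternatives were RLE scaling, other filters, DESeq2 1.42.0, limma-voom 3.58.1, the replicate block, the compared groups alone, each library left out in turn (a lone library is then assumed to vary like the other groups) and, added after the data were seen, removal of GC content and length trends. For the summed levels the alternatives were other scalings, no length, exon unions and leaving out the highest members. Some genes of the lists and markers are counted but not reported by name here.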

Additional observations from a re-analysis of the deposited data

Results flagged for a closer look

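Differences between the agents or the times were called in edgeR for the genes below, which is why they are listed. No outlier test was possible in groups of 2. In DFO against T003 at 24 h, BCL2 was at log2 -0.19 (adjusted p = 0.00768) and BMF at -0.21 (0.0366). In the same comparison FOXO3, a transcription factor known to induce BCL2L11, was at -0.17 (adjusted p = 0.0366), with 58.9 and 57.5 CPM with DFO against 64.3 and 66.4 CPM with T003. JUN, a subunit of AP-1, was at -0.25 (adjusted p = 0.0386), with 32.2 and 32.4 CPM with DFO against 38.9 and 38.0 CPM with T003. Both were named after their values were seen, and each call ended in 10 alternatives, with adjusted p of up to 0.222 for FOXO3 and 0.238 for JUN. In 24 h against 6 h of DFO, BCL2 was at 0.16, BMF at -0.45 and BID at 0.17. In 24 h against 6 h of T003, BCL2 was at 0.35, BMF at -0.22 and BAK1 at 0.19.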

How the results depend on the processing

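No member's call turned its direction in any alternative. Of 1620 values of members, 1580 kept their side of the threshold (values that no setting called count as kept), 29 lost a call and 11 gained one. The count of members called moved by over 1.5 times in these cases. In T003 24 h against untreated, 3 in the full model became 1 to 3 with single libraries left out. In DFO against T003 at 24 h, 2 became 0 to 2 with single libraries left out, and 1 with the replicate block, with the compared groups only and with the GC and length trend removed. The interaction of agent and time had 0 members called, beside 4 of all genes, and 2 with DESeq2, beside 116 of all genes. Over all genes the counts with single libraries left out were 431 to 1383 for DFO 24 h (1349 in full), 1084 to 2544 for T003 24 h (2524) and 14 to 229 for DFO against T003 at 24 h (270). The compared groups alone gave 851 for DFO at 24 h and 55 for DFO against T003 at 24 h, for which DESeq2 gave 701, the 1 CPM filter 446 and the replicate block 117. The pro-survival against pro-death balance minus that of untreated cells was 0.023 (log2) with DFO and 0.023 with T003 at 24 h, and 0.094 and 0.092 on CPM sums with no length. With single libraries left out it ran from -0.0042 to 0.051 with DFO and from -0.0083 to 0.054 with T003, so its sign is not fixed, and without the highest member of each side it was 0.044 with DFO and -0.0034 with T003. At 6 h it was 0.022 with DFO and 0.0029 with T003, and -0.026 and -0.039 without the highest member of each side (MCL1 and BAX). With single libraries left out the 6 h values ran from -0.0031 to 0.047 with DFO and from -0.022 to 0.028 with T003. The cause of these shifts was not tested. The paired fit with the replicate number as a block ended the calls of MCL1 with T003 at 24 h and of BMF between the agents at 24 h, and of no other member. Same-numbered libraries did not deviate together over the 10 pairs of groups (r from -0.357 to 0.303), so the numbers were not taken as pairs.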

Other observations

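Ratios of members per kilobase, given as values with no test and chosen with results known, set MCL1 against BIM and the pore formers against each other. The log2 ratio of MCL1 to BCL2L11 was 3.81 and 3.76 with DFO at 24 h and 4.03 and 4.11 with T003 at 24 h, against 3.93 and 4.08 in untreated cells. DFO lay below untreated cells, and T003 overlapped them. The log2 ratio of BAX to BAK1 was 0.97 and 0.94 with DFO at 24 h and 0.84 and 0.80 with T003 at 24 h, against 1.02 and 0.92 in untreated cells. Here T003 lay below untreated cells and DFO overlapped them.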
